A study of Mus musculus with 2148 samples.

Results

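Thymic epithelial cells sorted as cTEC (cortical) and mTEClo (medullary, MHC class II low) from newborn mice in the same 5 experimental batches were compared. The names are those of the sort gates. Members were the columns of the count table whose labels read newborn wild-type cTEC or newborn wild-type mTEClo, together 13.3% of the 1980 cells in the table. Each cell was a C57BL/6 thymus cell from mice aged 1 day, of wild-type genotype and with sex given as unknown, and each was read by RamDA-seq, which covers whole transcripts of total RNA in single cells. Both sorts were DAPI-negative, CD45-negative and EpCAM-positive. The cTEC sort was Ly51-positive with no gate on MHC class II, and the mTEClo sort was Ly51-negative with low surface MHC class II. Newborn cells of the third sort, mTEChi (Ly51-negative, high MHC class II), lay in the same batches and are given as a reference level only. Cells of a sort were summed within each experimental batch (batches 16, 17, 18, 19 and 20), which gave 10 sums in 5 pairs. In that order the cTEC sums held 37, 24, 22, 30 and 26 cells, the mTEClo sums 11, 30, 25, 29 and 29, and the mTEChi sums 40, 33, 34, 32 and 32. The labels number no mice or litters, so p-values measure the spread between batches, which may be technical.

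The thymic cortex is where immature T cells are made and positively selected. Its epithelium supplies Notch ligand, chemokines and cytokines, and cuts self peptides with proteases found in few other cells, among them the thymoproteasome subunit encoded by Psmb11 and the serine protease encoded by Prss16. The medulla removes self-reactive T cells, and its epithelium matures from MHC class II low cells to MHC class II high cells that express Aire. Both lineages arise from shared precursors in which the transcription factor Foxn1 is required.

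Depth was similar in both sorts. A cTEC held a median of 695844 reads (244481 to 1710375) and an mTEClo cell held 642575 (254682 to 1117617). The sums ran from 8265888 reads (mTEClo of batch 16, the sum with the fewest cells) to 32509557 reads (cTEC of batch 16). Mitochondrial genes took a median of 0.538% to 0.871% of reads per cell across the 10 sums. More reads of Xist than of 4 Y-linked genes were found in 25.2% of cTEC and 27.4% of mTEClo cells, so each sort held cells of both kinds.

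The defining markers set the cTEC sort apart, while those of mTEClo did so in part at most. Enpep encodes Ly51, on which the cells were sorted, and is given as a description. It was at 175.3, 158.1, 237.4, 179.1 and 205.2 CPM (counts per 1000000 reads of a sum) in cTEC of batches 16 to 20. In mTEClo it was at 36.2, 67.3, 78.9, 46.4 and 61.8 CPM, so the values did not overlap, and newborn mTEChi averaged 51.2 CPM. Of the other 5 cortical markers (Psmb11, Ccl25, Prss16, Ly75 and Dll4), 4 were called higher in cTEC. Newborn mTEChi averaged less than mTEClo for Psmb11 (21.1 against 271.5 CPM), Prss16 (74.6 against 737.2 CPM) and Ly75 (95.2 against 614.7 CPM). The same held for Dll4 (80.4 against 226.1 CPM), while Ccl25 was higher in mTEChi (255.8 against 145.5 CPM). Of the 6 markers listed for mTEClo (Ccl21a, Krt5, Krt14, Cldn3, Cldn4 and Itgb4), 0 were called higher in the mTEClo sort by edgeR. Krt14 was the member at an unadjusted p under 0.05 (p = 0.0264), DESeq2 called Krt14 and Cldn4 (adjusted p = 0.00832 and 0.0296), and limma called 0. Ccl21a, a chemokine gene of medullary cells, was at 17.3, 16.9, 15.1, 10.3 and 18.5 CPM in cTEC. In mTEClo it was at 12.6, 10.3, 9.74, 21.7 and 11.3 CPM, so that cTEC over mTEClo on the log2 scale came to 0.40 ± 0.30 (SE, adjusted p = 0.477 by edgeR). The values overlapped, and only the batch 19 sum of mTEClo lay above its cTEC partner. Ccl21a has near-identical copies and poorly mapped reads had been removed, so its level is uncertain. Krt5, a keratin of basal and medullary epithelium, averaged 268.4 ± 35.1 CPM (SD, n = 5) in cTEC and 301.9 ± 116.2 CPM in mTEClo (log2 0.01 ± 0.21, adjusted p = 0.988), with a sign that turned in several alternatives. The mTEClo name is therefore used below only for the sort gate.

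Of 23821 genes tested with edgeR, 823 are called below, meaning a fold of 2 or more and a p under 0.05 after Benjamini-Hochberg adjustment over all of them. They were 3.45% of the genes tested, with 1.87% higher and 1.58% lower in cTEC. At an unadjusted p under 0.05 there were 24%. The median log2 fold change of all genes tested was -0.04, and 46.1% of them had positive values. Counts of called or positive list members given below are to be read against these shares. The 5 cTEC sums lay above all 5 mTEClo sums in 4.82% of the genes tested and below them in 5.24%. In sums, a smaller share of cells with a transcript and less transcript per cell cannot be told apart, so the number of cells behind a call was counted in cells thinned to 200000 reads. A called higher gene was read at least 5 times in a median of 72 cTEC. A called lower gene reached that level in a median of 23 mTEClo cells. Among the lower genes, 31.8% rested on 10 mTEClo cells or fewer, and 22% of the higher genes rested on 10 cTEC or fewer. The number of calls changed when a batch was left out, with 2.01%, 4.42%, 1.11%, 1.35% and 1.73% of genes called without batch 16, 17, 18, 19 or 20. Each such fit also had fewer pairs, so dependence on that batch and a loss of power cannot be told apart. This holds for every call given below as lost without a batch.

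**Figure D1:**
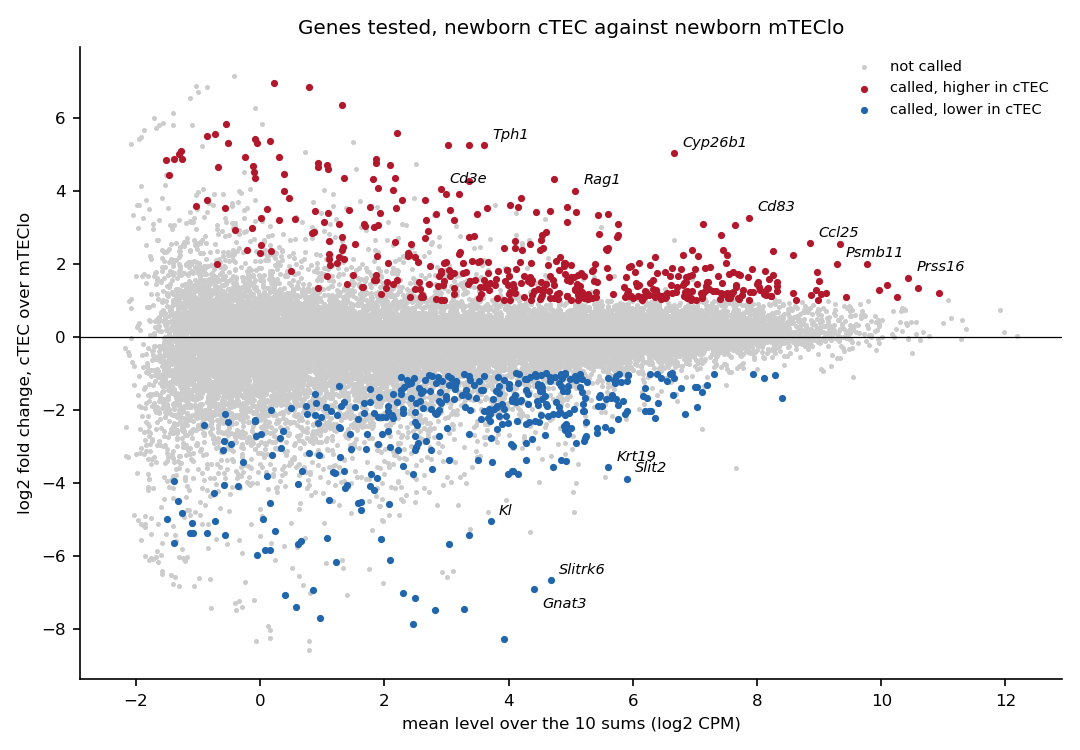
Each point is 1 of the 23821 genes tested, with its mean level (log2 CPM) on the x axis and its log2 fold change, cTEC over mTEClo, on the y axis. Red genes (1.87%) were called higher and blue genes (1.58%) lower in cTEC, Cyp26b1 among the former at 5.02 and Igfbp4 among the latter at -2.72.

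Several genes of peptide processing in the cortex were higher in cTEC. Of 18 genes of the thymoproteasome and protease list, all tested, 5 were called higher (Psmb11, Prss16, Psmb10, Ctsl and Psmb9) and 0 lower, with a list median of 0.32 on the log2 scale. DESeq2 called the same 5, and limma called 4 of them (not Psmb9). Psmb11 was at 834.9, 837.8, 1217, 1016 and 844.4 CPM in cTEC and at 164.4, 441.97, 317.03, 253.9 and 180.1 CPM in mTEClo. All 5 cTEC sums lay above all 5 mTEClo sums. Its level was 3.99-fold higher in cTEC (log2 2.00 ± 0.22, adjusted p = 0.00873), while newborn mTEChi averaged 21.1 CPM, below both. Prss16 was at 1629, 1767, 2735, 1994 and 1699 CPM in cTEC and at 541.9, 1081, 1143, 489.2 and 431.1 CPM in mTEClo, again without overlap (3.07-fold, log2 1.62 ± 0.21, adjusted p = 0.011). Ctsl encodes the lysosomal protease cathepsin L, which helps make the peptides shown on MHC class II. It was at 1337, 1356, 1932, 1459 and 1480 CPM in cTEC and at 548.6, 780.5, 784.7, 540.5 and 442.6 CPM in mTEClo (2.67-fold, log2 1.41 ± 0.14, adjusted p = 0.00673). Psmb10 and Psmb9, subunits of the immunoproteasome, were 2.65-fold and 2.08-fold higher (adjusted p = 0.0118 and 0.0111). Both calls were lost without batch 18, at adjusted p = 0.0549 and 0.0555. That of Psmb9 was also lost without batch 16, where its log2 fold change fell to 0.95.

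Other members of the list had lower values in cTEC and were not called. Ctsh had the most negative log2 fold change, -1.18 ± 0.60 (adjusted p = 0.288 by edgeR). Psmb8, the third subunit of the immunoproteasome, was at 12.6 to 15 CPM in cTEC and at 16.1 to 34.9 CPM in mTEClo, without overlap (log2 -0.67 ± 0.17, adjusted p = 0.0664). Psme1, a proteasome activator, had a log2 fold change of -0.60 ± 0.12 (adjusted p = 0.0379), and Lgmn, a lysosomal protease, one of -0.74 ± 0.16 (adjusted p = 0.0409). Psmb5, the constitutive subunit that the product of Psmb11 replaces in the thymoproteasome, was at 19 to 24.1 CPM in cTEC and at 16.5 to 20.4 CPM in mTEClo (log2 0.36 ± 0.15, adjusted p = 0.207).

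**Figure D2:**
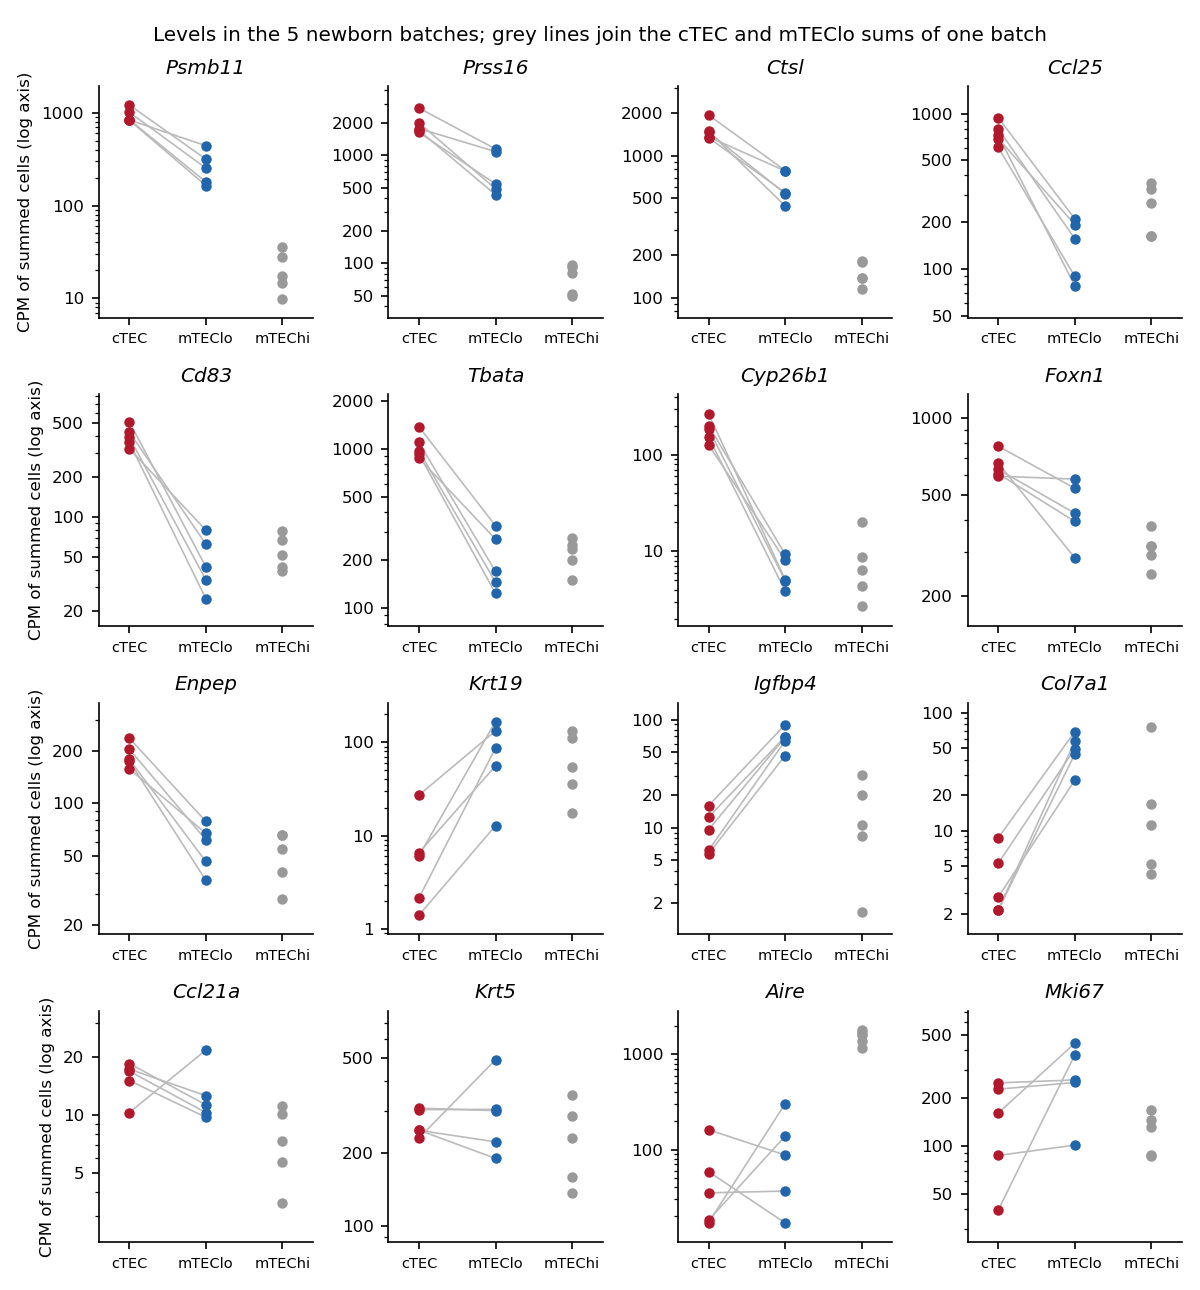
Level of 16 genes in the sums of each batch (CPM, log axis) for newborn cTEC (red), mTEClo (blue) and mTEChi (grey); grey lines join the cTEC and mTEClo sums of 1 batch. Psmb11, Prss16, Ctsl, Ccl25, Cd83, Tbata, Cyp26b1 and Enpep fell along every line from cTEC to mTEClo, Krt19, Igfbp4 and Col7a1 rose along every line, and the lines of Ccl21a, Krt5 and Aire crossed.

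Several genes of signals to developing T cells were also higher in cTEC. Of 18 genes in the T lineage support list, edgeR called 6 higher (Cd83, Ccl25, Tbata, Flt3l, Ly75 and Il15) and 0 lower, with a list median of 0.66. DESeq2 called the same 6 higher and Bmp4 lower, and limma called 5 higher (not Il15) and 0 lower. Cd83, whose product on cortical epithelium favours the making of CD4 T cells, was at 360.2, 323.7, 514.9, 430.02 and 393.6 CPM in cTEC. In mTEClo it was at 24.6, 79.8, 42.4, 62.8 and 33.9 CPM (9.58-fold, log2 3.26 ± 0.30, adjusted p = 0.00644). Newborn mTEChi averaged 56.1 CPM, near mTEClo. Ccl25, a chemokine that draws T cell progenitors into the thymus, was at 606.1, 690.9, 941.6, 796.7 and 723.9 CPM in cTEC and at 89.6, 193.4, 210.1, 156.6 and 77.8 CPM in mTEClo (5.92-fold, log2 2.56 ± 0.21, adjusted p = 0.00534). Tbata, also named Spatial, a gene of thymic stroma, averaged 1050 ± 200.8 CPM in cTEC and 207.9 ± 88.1 CPM in mTEClo (5.74-fold, log2 2.52 ± 0.20, adjusted p = 0.00534). Ly75, the endocytic receptor DEC-205, averaged 1350 ± 122.9 and 614.7 ± 164.6 CPM (2.42-fold, adjusted p = 0.00849). None of these 4 genes overlapped between the sorts, and each stayed called when any 1 batch was left out.

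Both cytokine genes on the list of calls were called with less margin. Flt3l averaged 47.5 ± 4.48 CPM in cTEC and 19.6 ± 7.8 CPM in mTEClo (2.74-fold, adjusted p = 0.0132), and its call was lost without batch 18 or 19 (adjusted p = 0.063 and 0.0532). Il15 averaged 39.9 ± 3.99 and 20.5 ± 5.74 CPM (2.15-fold, adjusted p = 0.0245), and its call was lost without batch 16, 18, 19 or 20 (adjusted p = 0.0716, 0.097, 0.0666 and 0.072). Dll4, the Notch ligand that sets the T cell fate, was at 391.9, 332.9, 488.2, 404.7 and 301.2 CPM in cTEC and at 191.99, 307.1, 297.8, 203.99 and 129.6 CPM in mTEClo. It was higher in cTEC in 5 of 5 batches but under the 2-fold threshold (1.89-fold, log2 0.92 ± 0.16, adjusted p = 0.0247). Cxcl12, a chemokine for progenitors, was also under it (1.95-fold, log2 0.97 ± 0.17, adjusted p = 0.024). Il7, the main growth factor of thymocytes, averaged 420.4 ± 48 and 294.6 ± 61.7 CPM (log2 0.63 ± 0.17, adjusted p = 0.0739). Kitl, the ligand of Kit on progenitors, averaged 179.8 ± 18.7 and 124.5 ± 38.2 CPM (log2 0.68 ± 0.16, adjusted p = 0.0504). Other members had negative values that did not pass the adjusted p with edgeR. These were Bmp4, a BMP ligand (log2 -1.76 ± 0.54, adjusted p = 0.108), Jag1, a Notch ligand (-0.75 ± 0.22, 0.1), Scarb1, a lipoprotein receptor (-0.63 ± 0.19, 0.0983), and Tgfb2 (-0.17, 0.779).

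The stretch just before the RefSeq transcript start is printed for 3 genes with large differences between the sorts among cortical signals and enzymes (Psmb11, Ccl25 and Cyp26b1) and for Igfbp4, the lower gene with the smallest adjusted p. All are from RefSeq on build GRCm38.p6, written 5′ to 3′ on the strand of the gene. Capitals mark GACGC, the core that Foxn1 is known to bind, or its reverse complement GCGTC.
Psmb11, chr14:54625060-54625309, plus strand: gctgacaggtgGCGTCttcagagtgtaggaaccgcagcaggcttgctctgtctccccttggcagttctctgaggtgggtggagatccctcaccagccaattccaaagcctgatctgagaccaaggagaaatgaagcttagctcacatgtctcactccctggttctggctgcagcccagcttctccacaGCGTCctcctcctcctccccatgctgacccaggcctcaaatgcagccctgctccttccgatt
Ccl25, first of its 2 starts, chr8:4324960-4325209, plus strand: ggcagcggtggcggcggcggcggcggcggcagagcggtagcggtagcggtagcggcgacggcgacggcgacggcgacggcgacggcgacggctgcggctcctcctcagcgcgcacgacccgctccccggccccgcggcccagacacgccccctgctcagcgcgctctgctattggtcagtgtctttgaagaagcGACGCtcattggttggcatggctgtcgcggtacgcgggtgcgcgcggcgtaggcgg
Cyp26b1, chr6:84593811-84594060, minus strand: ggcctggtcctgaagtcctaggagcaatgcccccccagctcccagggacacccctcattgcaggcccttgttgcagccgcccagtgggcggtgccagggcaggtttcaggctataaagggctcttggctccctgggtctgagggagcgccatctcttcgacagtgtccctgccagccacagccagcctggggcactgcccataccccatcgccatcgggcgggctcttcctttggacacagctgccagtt
Igfbp4, chr11:99040994-99041243, plus strand: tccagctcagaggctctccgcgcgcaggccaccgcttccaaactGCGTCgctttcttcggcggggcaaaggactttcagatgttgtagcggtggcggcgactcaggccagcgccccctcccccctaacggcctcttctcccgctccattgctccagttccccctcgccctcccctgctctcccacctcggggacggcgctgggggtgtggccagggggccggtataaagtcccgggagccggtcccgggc
The core was found 2 times before the start of Psmb11, the nearer at 62 bases before it, and 1 time each before the first start of Ccl25, at 56 bases, and before that of Igfbp4. Distances are to the first base of the core on the printed strand. These letters were not in the window of Cyp26b1 or of the second start of Ccl25. Of the 11 called members of the proteolysis and T lineage lists, 8 had a window in the table, and 2 of them (Psmb11 and Ccl25) held the core. Across both strands it was in 22.6% of all 32851 windows and in 37.4% of the 13845 genes tested that had a window. It was in 34.1% of the called higher genes and in 34.8% of the called lower genes that had a window, both near the share over all genes tested.

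Read cell by cell, Psmb11 reached 5 reads in most cTEC and in fewer mTEClo cells, and its level varied widely within each sort. With cells thinned to 200000 reads, at least 5 reads of Psmb11 were held by 95% of cTEC, or 100%, 95.8%, 100%, 90% and 88.5% of cells in batches 16 to 20. In mTEClo 90 cells (72.6%) did, or 72.7%, 93.3%, 72%, 72.4% and 51.7%. The share was higher in cTEC in 5 of 5 batches, by 22.4 ± 13 percentage points (SD, n = 5). In the 2-sided exact paired permutation test 2 of 32 sign patterns were as extreme, the fewest that 5 pairs allow. In mTEChi, thinned to the same 200000 reads from a lower median depth (548467 reads), 38 cells (22.2%) reached 5 reads. The median mTEClo cell held 89.1, 387.7, 246.8, 65.5 and 12.6 CPM of Psmb11 in the 5 batches, while the 90th percentile was at 377.1, 911.4, 638.5, 667.6 and 554.9 CPM. The median cTEC held 804.4 to 1177 CPM. The 10th percentile of cTEC was at 199.5, 156.3, 473.1, 44.9 and 115.3 CPM, below the 90th percentile of mTEClo in each batch, so the cells of the sorts overlapped.

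Some genes, but not all of the 9 looked at, followed Psmb11 across cells pooled over the 5 batches, a description for which the limit of 20 thinned reads was chosen after the values were seen. Differences between batches and between cells of a batch cannot be told apart in these counts. In batch 17, 76.7% of mTEClo cells held at least 20 reads of Psmb11 and 13.3% at least 5 of Krt19. In batch 20 the shares were 41.4% and 41.4%. Of 70 mTEClo cells with at least 20 reads of Psmb11, 65 held at least 5 reads of Ccl25 and 48 of Cd83. Of the 54 mTEClo cells under that limit, 31 held Ccl25 and 9 held Cd83. Krt19 went the other way, with 10 of the 70 cells and 28 of the 54. Ccl21a was in 4 of the 70 and in 14 of the 54. Igfbp4 was in 57.1% and 51.9% of them, Mki67 in 52.9% and 50%, Slit2 in 34.3% and 44.4%, Col7a1 in 32.9% and 44.4%, and Cyp26b1 in 10% and 1.85%. In the cTEC sort 12 cells were under 20 reads of Psmb11, and 10 of those 12 held Ccl21a, against 12.6% of the other cTEC. Over all cells, Ccl21a reached 5 reads in 26 cTEC (18.7%) and 18 mTEClo cells (14.5%). The share was 5.06 ± 7.57 percentage points higher in cTEC, in 4 of 5 batches (2-sided exact paired permutation p = 0.188).

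**Figure D3:**
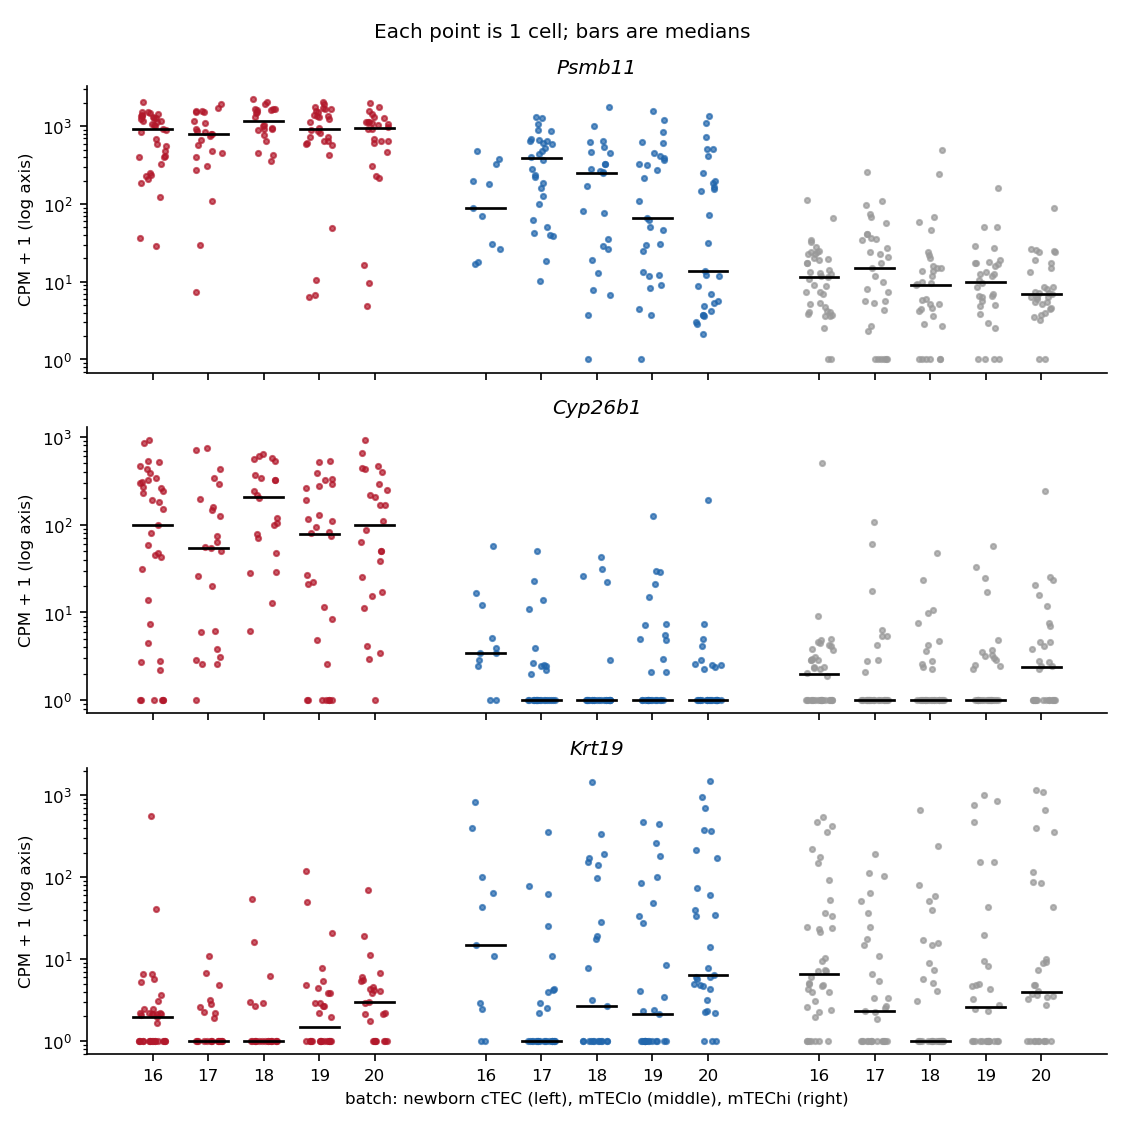
Each point is 1 newborn cell, grouped by sort and batch on the x axis, with CPM plus 1 of Psmb11, Cyp26b1 or Krt19 on a log y axis; black bars are medians. Psmb11 medians of cTEC lie between 804.4 and 1177 CPM, those of mTEClo between 12.6 and 387.7 CPM, and Cyp26b1 is read mainly in cTEC.

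The genes with the largest folds upward covered several functions. Cyp26b1, an enzyme that breaks down retinoic acid, was at 201.9, 153.8, 267.3, 127.3 and 187.2 CPM in cTEC and at 9.32, 3.88, 5.09, 8.1 and 4.96 CPM in mTEClo. The fold was 32.4 (log2 5.02 ± 0.29, adjusted p = 0.00313), and newborn mTEChi averaged 8.44 CPM. At least 5 thinned reads were found in 93 cTEC (66.9%), 8 mTEClo cells (6.45%) and 11 mTEChi cells (6.43%). The share of cells was 60.9 ± 12.2 percentage points higher in cTEC (higher in 5 of 5 batches, with 2 of 32 sign patterns as extreme in the exact paired permutation test). Cyp26b1 was picked from these data for its fold and its one sign in 5 of 5 batches, so this test adds no support. Tph1, the first enzyme of serotonin synthesis outside the brain, was at 10.4, 48.6, 20.8, 21.6 and 11.8 CPM in cTEC and at 0.202 to 1.38 CPM in mTEClo (log2 5.25 ± 0.37, adjusted p = 0.00492). At least 5 thinned reads were held by 28 cTEC (20.1%) and 0 mTEClo cells, which allows a share of up to 2.42% of cells at that limit (3 cells, counting error only). This is no limit on expression, since the gene was read in every mTEClo sum, with up to 11 reads in 1 cell before thinning. Newborn mTEChi averaged 79.8 CPM.

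Other genes of that rank were read in many cTEC. Cpeb1, which controls translation of mRNAs with short poly(A) tails, averaged 47.7 ± 10.7 CPM in cTEC and 3.41 ± 3.23 CPM in mTEClo (adjusted p = 0.012). Neu2, a sialidase, averaged 43 ± 12.2 and 5.78 ± 5.94 CPM (adjusted p = 0.0122). Shank2, a scaffold protein best known from synapses, averaged 238.1 ± 72.7 and 33.1 ± 18.5 CPM (adjusted p = 0.00967). These 3 calls held when any 1 batch was left out. Fxyd2, a regulator of the sodium pump, averaged 82.7 ± 11.3 and 11.2 ± 8.62 CPM (adjusted p = 0.017) but was not called without batch 18 or 19 (adjusted p = 0.0537 and 0.0663). Serpina3n, a secreted protease inhibitor, ran from 16.8 to 86.2 CPM in cTEC and from 0.804 to 8.81 CPM in mTEClo (adjusted p = 0.0147, and 0.053 without batch 20). Sec14l5 ran from 55.2 to 79.5 and from 1.21 to 28 CPM (adjusted p = 0.0355), and was called only with batches 16, 18, 19 and 20 all present (adjusted p = 0.0614, 0.132, 0.111 and 0.0576 without each). Newborn mTEChi averaged 66.5 CPM of Fxyd2, nearer to cTEC than to mTEClo. It averaged 15.6 CPM of Cpeb1, 7.55 of Neu2, 72.1 of Shank2, 10.6 of Serpina3n and 25.6 of Sec14l5. The last 2 of the 10 largest upward folds were Cd83, above, and Rag1, given below with the thymocyte transcripts.

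The genes with the largest folds downward also covered several functions. Krt19, a keratin of simple and progenitor epithelium, was at 27.2, 1.41, 2.15, 6.58 and 6.06 CPM in cTEC and at 132.6, 12.8, 86.8 and 55.9 CPM in mTEClo of batches 16 to 19, with its highest level in batch 20 and an average of 91 ± 61 CPM. Its level was 11.9-fold higher in mTEClo (log2 -3.57 ± 0.48, adjusted p = 0.0125) and higher there in 5 of 5 batches, although the batch 16 sum of cTEC lay above the batch 17 sum of mTEClo. It was read in 38 mTEClo cells (30.6%) and 6 cTEC (4.32%). Col7a1, the anchoring collagen beneath stratified epithelium, was at 5.32, 2.76, 2.15, 8.75 and 2.14 CPM in cTEC and at 49.7, 26.9, 57.5, 69.2 and 44.8 CPM in mTEClo (log2 -3.58 ± 0.31, adjusted p = 0.00559). Hr, a corepressor known from the hair follicle, averaged 1.91 ± 0.896 and 32.2 ± 24.2 CPM (adjusted p = 0.00884). These 3 genes stayed called when any 1 batch was left out. Slit2, a guidance ligand, ran from 0.468 to 13.6 CPM in cTEC and from 26.1 to 249.9 CPM in mTEClo (log2 -3.89 ± 0.64, adjusted p = 0.0196). Its call was lost without batch 16, 18, 19 or 20 (adjusted p = 0.0668, 0.0709, 0.0744 and 0.0685). Dsg3, a desmosomal cadherin of stratified epithelium, ran from 0.492 to 6.28 and from 11.4 to 44.2 CPM (adjusted p = 0.0124, and 0.0585 without batch 18).

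Several of the largest downward folds came from few cells. Slitrk6 was at 190.5, 0.34, 0.0894, 39.1 and 37.6 CPM in mTEClo and at 0 to 1.07 CPM in cTEC (log2 -6.68 ± 1.32, adjusted p = 0.0326). Only 3 mTEClo cells, 1 each in batches 16, 19 and 20, held 5 or more reads, and the call was lost without batch 16, 18, 19 or 20 (adjusted p = 0.142, 0.0927, 0.112 and 0.0669). Kl, the coreceptor klotho, was at 130.4 CPM in the mTEClo sum of batch 20 and at 0.0988 to 0.983 CPM in the others (adjusted p = 0.0255, and 0.205 without batch 20 or 0.091 without batch 18). It was read in 3 mTEClo cells, 2 of them in batch 20. Plac8, Ano7 and Pappa reached 5 reads in 9, 10 and 11 mTEClo cells and had adjusted p of 0.0407, 0.0467 and 0.0321. Each was lost without batch 18, 19 or 20, and Plac8 and Ano7 also without batch 16, at adjusted p from 0.0581 (Pappa without batch 19) to 0.132 (Ano7 without batch 20). All 5 are described here because they are among the 10 largest folds, not because they marked the sort.

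The fixed list of Wnt, BMP and FGF signalling also held genes of insulin-like growth factor signalling and H19. Of its 33 genes 32 were tested, and edgeR called 1 higher and 5 lower in cTEC, with a median of -0.29. DESeq2 called 2 higher and 9 lower, and limma called 1 higher and 7 lower. Both also called Fgfr1, Lgr5 and Wnt5a, and limma did not call Dkk3. Igfbp4, a secreted protein that binds insulin-like growth factors, was at 9.6, 5.75, 6.18, 16 and 12.5 CPM in cTEC and at 68.6, 46.5, 63.6, 89.8 and 69.5 CPM in mTEClo. It was 6.6-fold higher in mTEClo without overlap (log2 -2.72 ± 0.16, adjusted p = 0.00313), and it was read in 54.8% of mTEClo cells, 12.9% of cTEC and 11.1% of mTEChi cells. Id1, an inhibitor of differentiation that BMP signals induce, was at 5.83 to 12.5 CPM in cTEC and at 25.7 to 68 CPM in mTEClo (log2 -2.14 ± 0.31, adjusted p = 0.014, and 0.0618 without batch 18). Its relative Id2 had a log2 fold change of -2.12 ± 0.37 (adjusted p = 0.0239), lost without batch 16, 19 or 20 (0.0544, 0.0845 and 0.0527). H19, an imprinted noncoding RNA, averaged 44.3 ± 37.9 and 190.4 ± 97.3 CPM (adjusted p = 0.0451), lost without batch 16, 18, 19 or 20 (0.0544, 0.155, 0.12 and 0.0951). Dkk3, of a family of Wnt antagonists, averaged 0.595 and 3.2 CPM (adjusted p = 0.0398) and lost its call whichever batch was left out (adjusted p = 0.0697 to 0.112). Sfrp1, a secreted Wnt inhibitor, was the member called higher, at 264.2, 208.6, 231.3, 192.6 and 326.5 CPM in cTEC and at 120.5, 62.5, 142.9, 122.3 and 136.98 CPM in mTEClo (log2 1.20 ± 0.16, adjusted p = 0.012). Igf1r (log2 0.89), Kremen1 (0.76) and Wnt4 (0.68) had positive values at adjusted p of 0.00958, 0.00644 and 0.0177 and were under 2-fold.

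Of 28 basement membrane and adhesion genes, edgeR called 1 higher (Lamb3) and 3 lower (Nid1, Col17a1 and Nid2), with a median of -0.14. DESeq2 called 1 higher and 6 lower, and limma called 1 higher and 4 lower. Lamb3, a chain of laminin-332, was at 377.6, 397.6, 437.1, 345.8 and 410.6 CPM in cTEC and at 183.5, 229.3, 144.2, 180.2 and 120.7 CPM in mTEClo (log2 1.33 ± 0.17, adjusted p = 0.0105). Lama3, its partner chain, had a log2 fold change of 0.68 ± 0.11 (adjusted p = 0.0211). Nid2, which links laminin to collagen, was at 67.5, 75.8, 48.1, 49.8 and 61.5 CPM in cTEC and at 131.9, 192.5, 154.6, 127.5 and 114.4 CPM in mTEClo (log2 -1.15 ± 0.12, adjusted p = 0.00873). Nid1 averaged 23.5 ± 12.5 and 96 ± 19.4 CPM (adjusted p = 0.0236, lost without batch 19 or 20 at 0.0737 and 0.0661). Col17a1, of the hemidesmosome, averaged 14.5 ± 6.92 and 60.4 ± 21.1 CPM (adjusted p = 0.0186, lost without batch 16, 18 or 19 at 0.0599, 0.0537 and 0.0719).

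Keratins went both ways. Of 13 keratins of simple and stratified epithelia, 1 was called higher (Krt7) and 1 lower (Krt19) by edgeR and limma, with a median of -0.83. DESeq2 called 1 higher and 4 lower. Krt7 was at 463.8, 449.9, 498.7, 376.7 and 433.04 CPM in cTEC and at 164.7, 202.9, 125.04, 242.96 and 187.9 CPM in mTEClo (log2 1.4 ± 0.19, adjusted p = 0.013). The pan-thymic pair Krt8 and Krt18 had log2 fold changes of 0.59 ± 0.06 and 0.70 ± 0.09 (adjusted p = 0.00849 and 0.0101), under 2-fold. In the medullary progenitor and junction list of 16 genes, edgeR called 0 higher and 1 lower, with a median of -0.78. DESeq2 called 4 lower (Cldn4, Krt14, Krt15 and Ly6a) and limma 2 (Krt15 and Ly6a), and neither called any higher. The member that edgeR called was Krt15, a basal keratin, at 0.235 to 15.5 CPM in cTEC and 2.52 to 144.1 CPM in mTEClo (log2 -3.38 ± 0.47, adjusted p = 0.013), read in 13 mTEClo cells and 3 cTEC. Its call was lost without the batch block (log2 -3.36, adjusted p = 0.111). Cldn3 and Cldn4, tight junction genes of medullary cells, had log2 fold changes of -1.55 ± 1.13 and -1.58 ± 0.73 (adjusted p = 0.465 and 0.249). Krt14 had -1.11 ± 0.39 (0.147) and Itgb4 had 0.25 ± 0.14 (0.342). Krt17, a keratin, and Lifr, the receptor of leukaemia inhibitory factor, lay higher in cTEC without overlap and under 2-fold, at 0.71 ± 0.06 (adjusted p = 0.00644) and 0.72 ± 0.14 (0.0322).

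**Figure D4:**
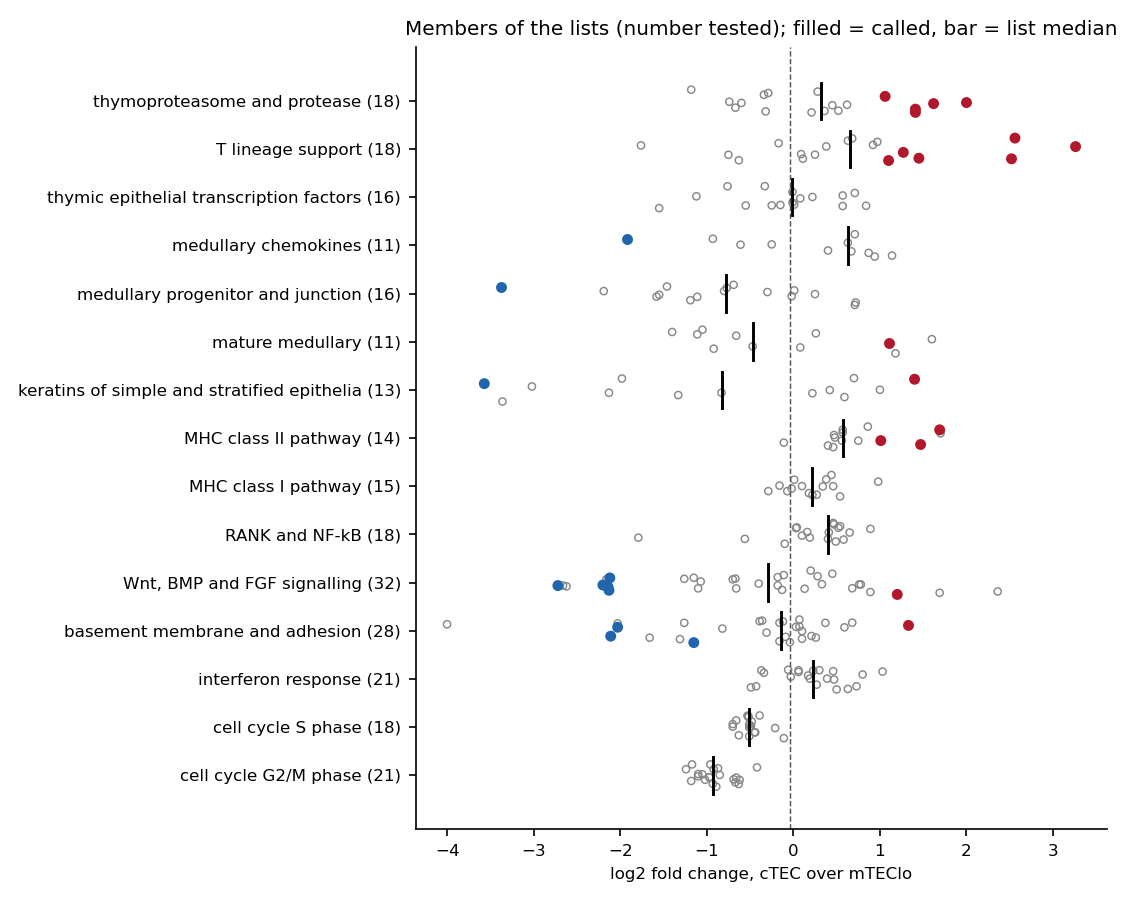
Log2 fold change (x axis, cTEC over mTEClo) of each tested member of the 15 lists; filled points were called, red higher and blue lower in cTEC, bars are list medians, and the dashed line is the median of all genes tested (-0.04). The called members of the proteolysis, T lineage and MHC class II lists all lie to the right.

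No transcription factor of the thymic epithelial list was called, with 0 of 16 in either direction by edgeR, DESeq2 and limma and a median of -0.01. At an unadjusted p under 0.05, 4 had positive and 3 had negative values. Foxn1 was at 593.3 to 777.99 CPM in cTEC and at 424.6, 578.01, 531.9, 394.01 and 283.4 CPM in mTEClo, without overlap and under 2-fold (log2 0.71 ± 0.16, adjusted p = 0.0483). Irf8 and Pax1 had log2 fold changes of 0.84 ± 0.13 (adjusted p = 0.0158) and 0.57 ± 0.11 (0.0305). Eya1, a cofactor of early thymus formation, was at 124.7 to 174.5 CPM in cTEC and 250.7 to 363.7 CPM in mTEClo (log2 -0.76 ± 0.08, adjusted p = 0.00883). Sox9 had -0.55 ± 0.12 (0.0444), Pax9 had -0.25 ± 0.10 (0.199) and Trp63 had 0.22 ± 0.10 (0.224).

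Most antigen presentation genes had positive values under 2-fold. MHC class II bears on the sort, since mTEClo cells were chosen for low surface MHC class II, and its genes are given as a description. Of 14 genes of the pathway, 13 had positive values (median 0.57), and H2-Oa, H2-DMb2 and Ciita passed both thresholds with edgeR. DESeq2 called H2-Ob higher as well, and limma called H2-Oa and H2-DMb2 only. Ciita, the master regulator of the pathway, averaged 500.3 ± 27.5 and 275.5 ± 70.5 CPM (2.01-fold, adjusted p = 0.014), and did not pass without batch 18 or 19 (0.063 and 0.0541) or without batch 20 or the batch block (log2 0.84 and 0.95). H2-Aa averaged 1100 ± 108.2 CPM in cTEC, 798.5 ± 117.4 CPM in mTEClo and 1866 CPM in mTEChi. H2-Oa, a subunit of the regulator of peptide loading, averaged 50.2 ± 7.08, 17.4 ± 5.84 and 122.7 CPM in that order. Of 15 MHC class I genes 0 were called by edgeR, DESeq2 or limma (median 0.22, 7 positive and 1 negative at an unadjusted p under 0.05), with Tap2, a peptide transporter, just under the threshold (log2 0.98 ± 0.11, adjusted p = 0.00914). Of 18 genes of RANK and NF-kB signalling 0 were called by edgeR and limma and 15 had positive values (median 0.40), 10 of them at an unadjusted p under 0.05 against 1 negative. DESeq2 called Tnfrsf11b lower. Tnfaip3 (log2 0.89 ± 0.12, adjusted p = 0.0132), Relb (0.54 ± 0.09, 0.019) and Ltbr (0.41 ± 0.07, 0.0194) passed the adjusted p without the fold. Of 21 interferon response genes 0 were called by edgeR and limma (median 0.23, with 7 positive and 1 negative at an unadjusted p under 0.05), and DESeq2 called Gbp2 higher.

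Genes of mature medullary cells seldom separated the sorts. Of 11 tested genes of 12, Cd40, a receptor through which T cells signal to the medulla, was called higher in cTEC by edgeR, and 0 were lower (median -0.47). DESeq2 called 2 higher and 1 lower, and limma called 0. Cd40 was at 67.2, 73.6, 88.4, 130.1 and 86.3 CPM in cTEC, at 46.2, 33.6, 42.8, 60.8 and 38.1 CPM in mTEClo (log2 1.10 ± 0.11, adjusted p = 0.00734), and averaged 260.6 CPM in mTEChi. Aire was at 17.1, 58.6, 18.1, 161.3 and 35.1 CPM in cTEC and at 303.2, 16.9, 138.5, 87.6 and 36.6 CPM in mTEClo (adjusted p = 0.746), against a mean of 1516 CPM in mTEChi. Of 11 tested medullary chemokine genes of 13, 0 were higher and Cxcl9 was lower (median 0.63). Cxcl9 was at 0.843 to 20.4 CPM in cTEC and 8.94 to 126.8 CPM in mTEClo (log2 -1.92 ± 0.37, adjusted p = 0.0314). Its call was lost without batch 16, 18, 19 or 20 (0.0575, 0.0914, 0.0898 and 0.0665) and without the batch block (0.13).

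None of the listed cell cycle genes was called. Of 18 S phase genes and 21 G2/M phase genes, 0 were called by edgeR, DESeq2 or limma. Positive values were found for 0 of 18 and 0 of 21, with medians of -0.51 and -0.93, and 4 S phase genes and 0 G2/M phase genes had an unadjusted p under 0.05. Mki67, a marker of cycling cells, was at 249.3, 227.7, 161.3, 39.7 and 87.3 CPM in cTEC and at 260.4, 250.8, 442.3, 373.9 and 101.4 CPM in mTEClo. It was lower in cTEC in 5 of 5 batches by amounts that differed between batches (log2 -0.85 ± 0.49, adjusted p = 0.345). It was read in 53 cTEC (38.1%) and 64 mTEClo cells (51.6%).

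Transcripts of thymocytes were higher in the cTEC sort and were held by few cells. Of 17 thymocyte markers, 7 were called higher (Cd2, Cd8b1, Cd3e, Rag1, Themis, Cd3d and Cd8a) and 0 lower, with a median of 3.13. Their summed level was 175.9, 374.6, 532.4, 309.4 and 197.6 CPM in cTEC, 134.7, 87.8, 249.99, 141.9 and 99 CPM in mTEClo, and 404.1 to 563.5 CPM in mTEChi. Rag1, of the recombinase of antigen receptor genes, was at 40, 54.9, 117.6, 31.2 and 35.6 CPM in cTEC and at 2.42, 1.46, 33.9, 2.47 and 1.16 CPM in mTEClo (log2 4.00 ± 0.53, adjusted p = 0.012). Cd3e, of the T cell receptor complex, was at 3.75, 12.9, 23.5, 19.1 and 5.39 CPM in cTEC and at 0.0485 to 4.56 CPM in mTEClo (adjusted p = 0.0241). Cells with at least 1 thinned read of 10 or more of the 17 genes numbered 10 in cTEC (2, 1, 2, 3 and 2 by batch, 7.19% of all), 1 in mTEClo and 6 in mTEChi. No other cell of the cTEC or mTEClo sort held more than 7. All 10 cTEC of this kind held at least 5 reads of Epcam and of Psmb11, although the gate had left out CD45-positive cells. Ptprc, which encodes CD45, was at 8.75 to 44 CPM in cTEC and at 0.0485 to 24.8 CPM in mTEClo (adjusted p = 0.131).

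Leaving out these cells, an alternative chosen after seeing the data, left 0 of the 7 thymocyte genes called. Cd2, Cd3d and Cd8b1 then had too few reads to be tested. The log2 fold change was then -0.34 for Cd3e, -0.69 for Cd8a, -1.07 for Themis and 0.70 for Rag1, none of them called (adjusted p = 0.855, 0.465, 0.641 and 0.422). That of Psmb11 was 1.98 and that of Cd83 was 3.25. In all, 1.64% of genes tested were then called higher and 1.57% lower, and 83.2% of the genes called with all cells were among them. Without the batch term the calls of Rag1, Cd3d, Cd8a and Cd8b1 were lost (adjusted p = 0.0798, 0.0963, 0.164 and 0.102), and without batch 19 those of Cd2, Cd3d, Cd3e, Cd8a and Cd8b1 were lost (0.051, 0.0687, 0.0864, 0.0564 and 0.0784). Without batch 18 those of Cd2, Cd3d, Cd3e and Themis were lost (0.0618, 0.0872, 0.0664 and 0.0583). Without batch 20 those of Cd3d, Cd3e, Cd8b1 and Themis were lost (0.078, 0.0608, 0.0744 and 0.0578), and without batch 16 those of Cd3d, Cd3e and Cd8b1 (0.0697, 0.0655 and 0.0681).

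Markers of other cells varied within the mTEClo sort. Tuft cell markers summed to 759.4, 74.5, 64.7, 702.6 and 524.2 CPM in mTEClo and to 90.8 to 117.5 CPM in cTEC. Of the 8 genes, Gnat3 was called lower in cTEC by edgeR (adjusted p = 0.00967), read in 3 mTEClo cells, 1 each in batches 16, 19 and 20. DESeq2 called Avil, Gnat3, Plcb2 and Trpm5 lower, and limma called 0. Trpm5, a channel of tuft cells, was at 204.9, 12.3, 4.74, 139.3 and 110.8 CPM in mTEClo and at 1.18 to 6.11 CPM in cTEC (adjusted p = 0.111 by edgeR), and its level in mTEClo was high in the same 3 batches. Parathyroid markers summed to 874.9 CPM in the mTEClo sum of batch 20 and to 12.5 to 72.2 CPM in the others. Muscle markers had 1 gene called by edgeR, Tnnt3, at 0.0936 to 2.68 CPM in cTEC and 0 to 0.247 CPM in mTEClo (adjusted p = 0.029, lost without batch 16 or 18 at 0.0616 and 0.0839). Tnnt3 was read in 2 cTEC and was not called by DESeq2 or limma, and DESeq2 called Myog lower. For the lists of myeloid and B cell, mesenchyme, endothelium, erythroid, keratinocyte-like, neuroendocrine and microfold markers, 0 genes were called by edgeR. DESeq2 called 9 genes of these lists (Csf1r, Cd79b, Fbn1, Lum, Cdh5, Pecam1, Calml3, Dmkn and Krtdap), and limma called Fbn1. At an unadjusted p under 0.05, mesenchyme and keratinocyte-like markers had 3 genes each with negative values. Myeloid and B cell markers had 1 positive and 2 negative, endothelium markers 1 of each, microfold markers 1 negative, and the others 0. Mesenchyme markers summed to 86.6 to 317.4 CPM in cTEC and 187.2 to 670.9 CPM in mTEClo. The part of these cells in the calls lower in cTEC was not tested.

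**Figure D5:**
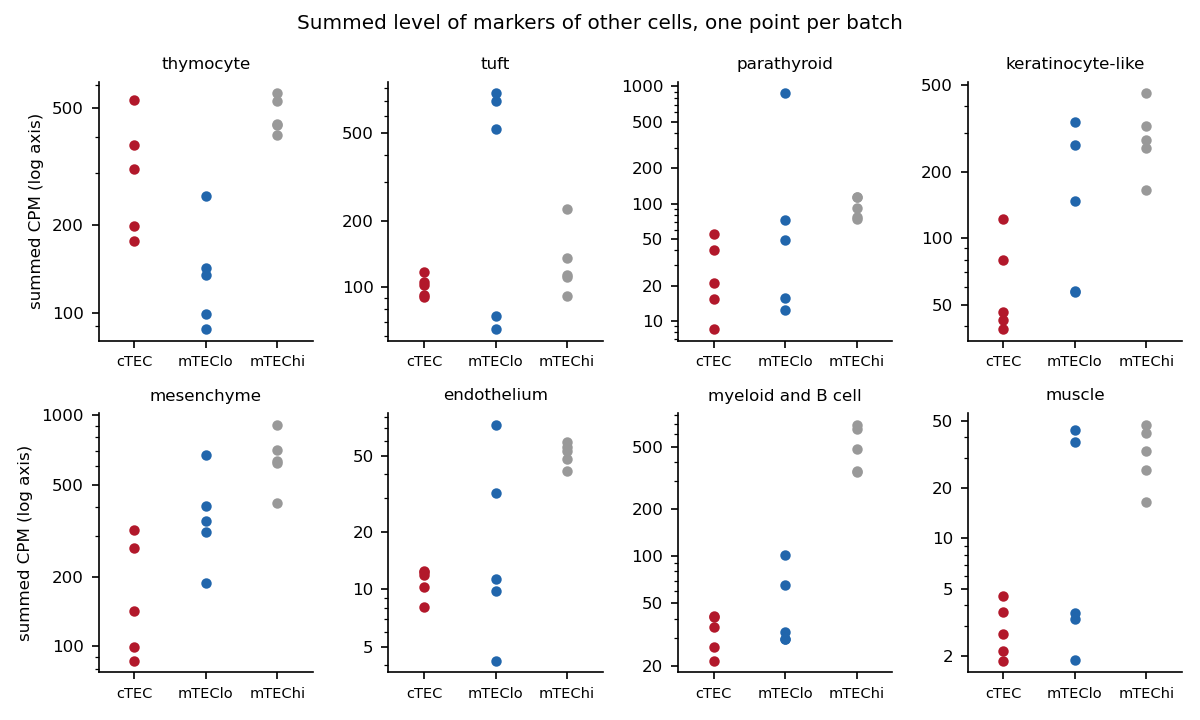
Summed level (CPM, log axis) of 8 lists of markers of other cells, with 1 point per batch for newborn cTEC (red), mTEClo (blue) and mTEChi (grey). Tuft markers lie at 524.2 CPM or more in 3 mTEClo sums, against no more than 117.5 CPM in the remaining mTEClo sums and in all cTEC sums.

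Numbers of genes detected per cell were compared at one depth. At 200000 reads the median cell held 12092, 12164, 11722, 11866.5 and 11841 genes in cTEC and 11871, 12105.5, 11826, 12083 and 11676 genes in mTEClo. The difference averaged 24.8 genes, less than its spread between batches (2-sided exact paired permutation p = 0.75, higher in cTEC in 3 of 5 batches). Counting only genes with at least 5 reads turned its sign, with 7247.9 genes in cTEC and 7373.8 in mTEClo on average, lower in cTEC in 5 of 5 batches.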

How the data were processed

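Single cells of thymic epithelium were read by RamDA-seq. Per the labels and the study's methods, the authors trimmed reads with fastp 0.20.0, aligned them to GRCm38 with STAR 2.7.3a, handled them with SAMtools 1.9 and Picard 2.21.1, and counted reads per gene without strand using HTSeq 0.11.2. The deposited table holds raw read counts, so antisense and overlapping genes cannot be separated. Of its 1980 columns, 1546 belong to other groups or ages and were not used here. Every cell used held at least 203010 reads and 10443 genes, above the authors' limits of 200000 and 8000.

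Counts were summed per sort and experimental batch and tested with the edgeR 4.0.16 quasi-likelihood test in R 4.3.3 (TMM scaling, filterByExpr, batch as a block, 4 residual degrees of freedom, 2-sided, median biological coefficient of variation 0.383). Genes were called at a Benjamini-Hochberg adjusted p under 0.05 over all 23821 genes and a fold of at least 2. CPM values are the summed counts per 1000000 reads of a sum, with no scaling between sums. Errors after log2 fold changes are standard errors, and those after CPM are SD over 5 batches. Shares of cells and genes per cell used cells thinned to 200000 reads (seed 20), with at least 5 reads for a share, and exact paired permutation tests over 5 batches. The rank test over cells in the study's methods was not used, since cells are not replicates.

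The members and gene lists were chosen with earlier results of these data known. Named genes were members of the lists, and the 10 protein-coding genes with the largest folds in each direction among those called, at 20 CPM or more in the higher sort and of one sign in 5 of 5 batches. Batches were paired because the labels place both sorts in each batch. The correlation of the deviations of paired sums was -0.097, 0.056, 0.281, 0.008 and 0.265 over 10568 genes. In simulated data for this comparison (23073 genes, 200 changed), 12% of 2-fold and 39% of 4-fold changes passed the adjusted p, counted without the fold threshold. There were 5 false calls with that threshold and 6 at any fold. Real differences of this size can therefore be missed. The shares need not hold for the data, in which 823 genes were called. Promoters came from a RefSeq table on GRCm38.p6, which holds both strands' gene starts. Alternatives used DESeq2 1.42.0, limma 3.58.1 on log2 of mean CPM plus 1, other filters, thinned or equal numbers of cells, and each batch left out. Intervals and limits cover counting error only.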

Additional observations from a re-analysis of the deposited data

Results flagged for a closer look

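Of the groups of 5 batch values looked at, 39 (14.4%) held a value that stood apart from the other 4 by Dixon's test at the 95% level, where chance alone flags about 1 in 20. Batches 19 and 20 gave 11 each, batch 18 gave 8, batch 16 gave 6 and batch 17 gave 3. The values were not weighed against any explanation.

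The mTEClo sum of batch 20 held parathyroid transcripts at a summed 874.9 CPM against at most 72.2 CPM elsewhere in that sort, with Pth at 127.3 CPM, Gcm2 at 113.03 CPM, Kl at 130.4 CPM and the endothelial gene Cdh5 at 60.0 CPM. The cTEC sum of the same batch was also the highest for Pth (12.1 CPM), Gcm2 (1.22 CPM), Kl (1.37 CPM) and Cdh5 (0.611 CPM). At least 5 thinned reads of Pth were found in 11 mTEClo cells and 9 cTEC of batch 20 and in 0 cells of either sort in the other batches. The largest count of Pth in 1 cell was 1112 reads in mTEClo and 35 in cTEC. In batch 20, Lgmn in mTEClo (157.2 CPM) and Id1 in cTEC (12.5 CPM) were also the highest.

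Thymocyte genes stood apart in batch 18. Rag1 was at 117.6 CPM in cTEC and 33.9 CPM in mTEClo, and in mTEClo Cd3e was at 4.56, Cd8a at 8.67 and Cd8b1 at 3.66 CPM. The 1 mTEClo cell with 10 or more thymocyte genes lay in that batch. Ctsl (1932 CPM) and Wnt4 (357.4 CPM) were the highest and Spry4 (2.06 CPM) the lowest in cTEC of batch 18.

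Batch 19 held the highest values of mTEClo for Ccl21a (21.7 CPM, with 24.1% of cells), Id1 (68 CPM), Dkk3 (6.37 CPM) and Tnnt3 (0.247 CPM). In cTEC it held the highest values of Aire (161.3 CPM), Cldn4 (20.5 CPM), Ly6a (39.7 CPM), Tnnt3 (2.68 CPM) and the summed microfold markers (605.5 CPM), and the lowest of Sec14l5 (55.2 CPM). In batch 16, with 11 cells, mTEClo was the highest for Eya1 (363.7 CPM), Slitrk6 (190.5 CPM), Il17rd (49.8 CPM) and the summed neuroendocrine markers (68.5 CPM) and the lowest for Tap2 (62.7 CPM), and cTEC was the highest for Krt19 (27.2 CPM). In batch 17, Flt3l was the highest (33.4 CPM) and Sfrp1 the lowest (62.5 CPM) in mTEClo, and H19 was the highest in cTEC (110.8 CPM).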

How the results depend on the processing

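Of the genes tested 3.45% were called (54.2% of the calls higher in cTEC). DESeq2 called 7.72% (38% of them higher), no threshold on the fold gave 7.49% and a fold of at least 4 gave 1.49%. Leaving out 1 batch gave 1.11% to 4.42% (2.01% without batch 16, 1.35% without 19, 1.73% without 20). The cause was not tested. The labels put both sorts in each batch, but not every pair of sums deviated together. Without the batch block 5.17% were called (43.9% of them higher), and 81.7% of the main calls were among them. Under the other alternatives run, the number of calls was within 1.5 times. The difference in genes per cell turned from 24.8 to -125.9 with at least 5 reads, and ranged from -24.2 to 85.1 without 1 batch (-24.2 without batch 16, -10.2 without batch 20). Shares of cells with Psmb11 and Ccl21a kept their sign in every alternative run. Among named genes, Krt5 turned negative with limma (-0.18), without the block (-0.08), with thinned cells (-0.09), with equal numbers of cells (-0.17) and without batch 16 (-0.12), 17 (-0.04), 18 (-0.03) or 20 (-0.02), and was 0.25 without 19. Aire turned to 0.15 without batch 16 and 0.00 without batch 18, and was -1.41 without 17. Gcm2 turned to 0.05 with DESeq2. Without cells with thymocyte transcripts, chosen after seeing the data, Cd3e (-0.34), Cd8a (-0.69), Themis (-1.07) and Ptprc (-0.80) turned negative. Of the 66 called named genes, 31 lost their call without batch 18, 29 without 19, 25 without 20, 18 without 16 and 3 without 17. Genes read in few cells, and sums of 11 to 37 cells, limit what could be seen.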

Other observations

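Of the feedback genes of ERK signalling, which growth factors such as FGF induce, some were called lower in cTEC. The list was put together after the values were seen and is a description with no test of the list. Of 13 genes 12 were tested, all 12 had negative values (median -1.29), 5 were called lower and 0 higher, where 1.58% of all genes tested were called lower. Etv5, a transcription factor downstream of FGF receptors, was at 13.9, 14.2, 5.34, 9.88 and 5.65 CPM in cTEC and at 56, 54.8, 51.1, 53.2 and 63.8 CPM in mTEClo (log2 -2.51 ± 0.27, edgeR adjusted p = 0.00873). The values did not overlap, and the call held when any 1 batch was left out. Etv4 was at 3.87 to 9.28 and 16.5 to 30.5 CPM (adjusted p = 0.0117, and 0.0507 without batch 18). Il17rd, an inhibitor of FGF signals, was at 1.12 to 8.46 and 22.8 to 49.8 CPM (adjusted p = 0.0169, lost without batch 16, 18, 19 or 20 at 0.0569, 0.0607, 0.052 and 0.0568). Spry4 and Spry1, of the sprouty inhibitors, had log2 fold changes of -2.12 and -1.03 (adjusted p = 0.0322 and 0.0287), both lost without batch 17, 18, 19 or 20 (adjusted p up to 0.112 and 0.0932).

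Receptors outside the lists were also lower in cTEC. Ngfr, the low-affinity neurotrophin receptor, was at 10.8 to 15.6 CPM in cTEC and 36.4 to 166.9 CPM in mTEClo (adjusted p = 0.013, and 0.063 without batch 18 or 0.0532 without batch 19). Met, the receptor of hepatocyte growth factor, was at 2.43 to 15.4 and 41.7 to 72.8 CPM (adjusted p = 0.0149, and 0.0584 without batch 19 or 0.0546 without batch 20). Ror2, a Wnt5a receptor, was at 0.843 to 9.69 and 29.6 to 44 CPM (adjusted p = 0.0194, and 0.0715 without batch 19 or 0.0661 without batch 20). Of 16 retinoid genes, a list made in the same way, Cyp26b1 was called higher and Aldh1a3 and Stra6 lower (median -0.15). Of all genes tested, 1.87% were called higher and 1.58% lower. Aldh1a3, which makes retinoic acid, was at 8.8 to 30.3 CPM in cTEC and 40.4 to 174.2 CPM in mTEClo (log2 -2.27 ± 0.43, adjusted p = 0.0296), lost without batch 16, 18 or 19 (0.0531, 0.113 and 0.0744). Stra6, the receptor that takes up retinol, had a log2 fold change of -1.35 ± 0.23 (adjusted p = 0.0233), lost without batch 18, 19 or 20 (0.0777, 0.0574 and 0.0748) and without the batch block (0.0675).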
